A study of Homo sapiens with 12 samples.

Results

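The ER unfolded protein response genes described here are 10 targets and transducers of the XBP1 and ATF6 branches: ERN1, ATF6, XBP1, HERPUD1, EDEM1, PDIA4, PDIA6, SDF2L1, CRELD2 and MANF. They were taken by gene name from the table of raw counts, each matched 1 row, and heat shock and DNAJ genes were left out of the set. All 10 passed the filter on low counts, out of 20771 genes in the table and 16515 tested. RNA was sequenced from 2 Ewing sarcoma lines, EW8-RRM1-KO and its TC71 counterpart TC71-RRM1-KO, in which endogenous RRM1, the large subunit of ribonucleotide reductase, was targeted with CRISPR/Cas9 and RRM1 is supplied by a doxycycline-inducible, codon-optimized transgene. Each line has 3 libraries labelled 0 h (doxycycline present, transgene on) and 3 labelled 48 h (doxycycline withdrawn for 48 h), which makes 12 libraries in 4 groups. All groups therefore carry the knockout and the transgene, and no library comes from parental cells. The knockout lines were single-cell cloned, so that line and clone cannot be told apart, and neither can loss of RRM1, time and withdrawal of doxycycline itself, since no library of cells without the transgene is among the 12.

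Proteins that enter the secretory pathway fold in the endoplasmic reticulum (ER), and unfolded protein in the ER activates sensor proteins in its membrane. IRE1 (the product of ERN1) removes a short intron from XBP1 mRNA in the cytoplasm, which lets the active XBP1 transcription factor be made. ATF6 travels to the Golgi, where the proteases encoded by MBTPS1 and MBTPS2 release its transcription factor domain, and PERK (EIF2AK3) lowers translation and favours synthesis of ATF4 and, downstream, CHOP (DDIT3). XBP1 and ATF6 induce ER chaperones, disulfide isomerases and components of ER-associated degradation (ERAD), the route by which misfolded proteins are sent to the proteasome. The counts are summed per gene, so spliced and unspliced XBP1 mRNA, and the cleavage of ATF6, are not seen in them.

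The promoters of the 10 genes, from 250 bases before to 50 bases after the RefSeq start of the gene (build GRCh38.p14), were searched on both strands for the binding motifs of these factors, because the members are grouped as their targets. The ER stress response element (ERSE) was searched as CCAAT, 9 bases of any kind and CCACG, and the related ERSE-II as ATTGG, 1 base and CCACG. The windows around the matches are given 5′ to 3′ along the gene, with the outer letters of each motif in capitals (CGTGG and ATTGG or CCAAT where the match lies on the other strand).
XBP1 (ERSE, chr22:28800598-28800626, − strand, 57 to 29 bases before the start): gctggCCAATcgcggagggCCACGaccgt
CRELD2 (ERSE, chr22:49918539-49918587, + strand, 95 to 47 bases before the start): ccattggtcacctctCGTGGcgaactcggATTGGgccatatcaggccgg
HERPUD1 (ERSE-II, chr16:56932010-56932050, + strand, 132 to 92 bases before the start): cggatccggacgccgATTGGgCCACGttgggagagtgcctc
SDF2L1 (ERSE-II, chr22:21642099-21642139, + strand, 203 to 163 bases before the start): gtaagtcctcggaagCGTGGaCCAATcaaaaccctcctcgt

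An ERSE was present in 2 of the 10 promoters and in 22 of all 27305 promoters of the same length (0.0806%). ERSE-II was present in another 2 of the 10 and in 15 of all promoters (0.0549%). The members were grouped as targets of these factors, so that the shares are a description only. The short element CCACG, which lies inside both motifs, was found in 7 of the 10 against 37.9% of all promoters, but also in 9 of 14 chaperone, 9 of 13 oxidative folding, 11 of 15 ERAD and 20 of 25 translocation and transport promoters of the lists described below. Neither TGACGTGG nor TGACGTGA, the XBP1 and ATF6 element, had a match in the 10. TGACGTGG itself holds CCACG on the other strand. The CRELD2 window lies before the RefSeq start but within the longer GENCODE gene, outside its exons. Each pair of genes with a shared motif holds members with different responses below: XBP1 rose in EW8 while CRELD2 did not pass the test, and HERPUD1 rose while SDF2L1 fell. Whether the motifs bear on the responses was not tested.

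Counts per library summed to between 18468485 and 35698991, both extremes being EW8 libraries. The 10 genes together took 0.0846% to 0.0996% of the counts. Mitochondrial genes took 3.80% to 4.09% in EW8 at 0 h and 3.05% to 3.54% at 48 h, and 4.20% to 5.11% in TC71 at 0 h against 2.68% to 3.99% at 48 h, and the part of this shift in the results was not tested. The lowest of these shares was that of TC71 48 h replicate 3, which also differed most from the other replicates of its group (chi-square per gene of 7.83 and 9.48, against 2.05 to 5.12 for every other pair). Ewing sarcoma markers (CD99, NKX2-2, NR0B1 and 6 others) were all above 3 counts in every group, with a summed level of 1280 to 1380 CPM (counts per 1e+06 counts of a TMM-scaled library). Single markers moved within that sum, in EW8 from a log2 fold change of -1.11 (BCL11B) to 0.98 (NR0B1) and in TC71 from -0.95 (BCL11B) to 0.47 (NKX2-2). Of 4 leukocyte markers, 2 were in the table, at a sum of at most 0.734 CPM, and of 3 epithelial markers 1 was, at most 1.60 CPM. The fibroblast markers in the table (3 of 4) summed to 147 to 149 CPM in EW8 at 0 h and 176 to 183 CPM at 48 h, and to 46.7 to 48.3 and 62.3 to 64.6 CPM in TC71. Their part in the results was not tested. RRM1 (ENSG00000167325) in EW8 read 9.37, 9.51 and 9.67 CPM at 0 h, then 63.9, 72.6 and 74.1 CPM at 48 h. In TC71 it read 15.7, 15.5 and 17.3 CPM at 0 h and 25.7, 26.4 and 24.1 CPM at 48 h. The values were higher at 48 h in both lines. The transgene is codon-optimized, and how far its reads enter this row was not tested, so the row does not check the loss of the transgene product. Times are used below as the labels give them. The sources used here do not say whether the replicates are separate cultures, so that p-values measure the spread between these libraries, which may be technical. In bulk RNA, a smaller share of cells with a transcript and less of it per cell cannot be told apart.

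In the EW8 libraries labelled 48 h, some members rose and others fell. The sensors ERN1 and ATF6, the transcription factor XBP1 and the ERAD genes HERPUD1 and EDEM1 rose, while the disulfide isomerases PDIA4 and PDIA6 and the ER-resident factors SDF2L1 and MANF fell. CRELD2 did not pass the test (adjusted p = 0.0537), but was called lower under 7 of the other settings, which then made 5 lower members. This is 5 of 10 higher and 4 lower at an adjusted p below 0.05 (edgeR quasi-likelihood test, Benjamini-Hochberg over all genes tested), against a background of 68.6% of all genes called in this contrast, 37% higher and 31.6% lower. Among the 8639 genes at least as abundant as SDF2L1, the least abundant member, 37.1% were higher and 43.4% lower. The share called is thus not itself a result about the members. The libraries of the groups did not overlap for 9 of the 10, as for 71.1% of all genes. Past a fold of 2 as well, 1 member was higher (ERN1) and 0 were lower, against 13.9% and 3.35% of all genes. XBP1 lay at the threshold and made 2 higher members with total-count scaling (log2 fold change 1.12) or without EW8 0 h replicate 3 (1.003), EW8 48 h replicate 1 (1.005) or EW8 48 h replicate 3 (1.004). The count of 0 was also 0 at an unadjusted p below 0.05 with the same fold and with the DESeq2 Wald test. The median log2 fold change of the 10 was 0.08, near that of all genes (0.03), because rises and falls offset each other. The median size of change regardless of sign was 0.57 on the log2 scale against 0.44 for all genes.

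**Figure D1:**
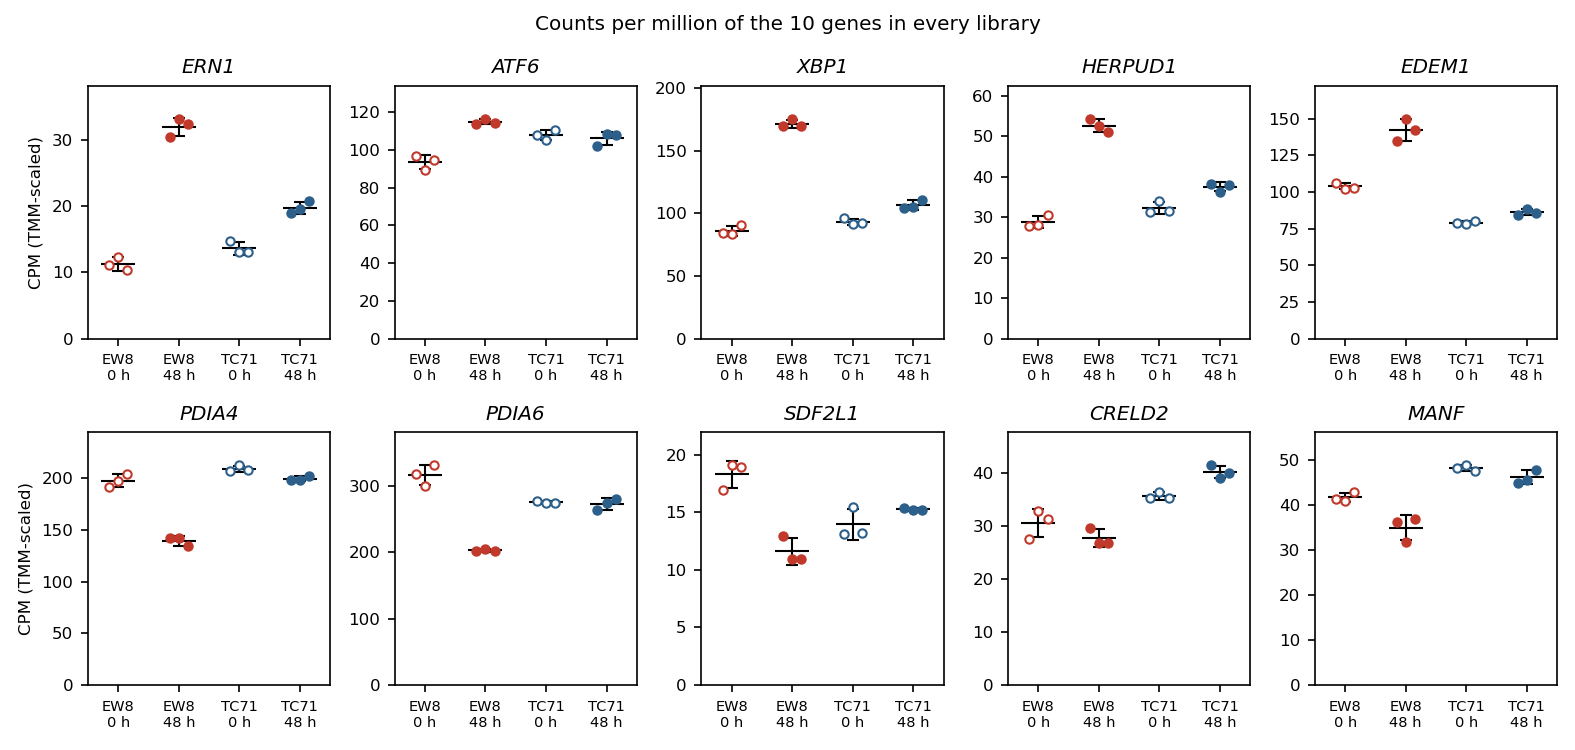
Level in CPM (TMM-scaled, vertical axes from 0) of each gene in the 12 libraries, with open points for 0 h, filled points for 48 h, and a bar with the mean and SD of the 3 libraries of a group. In EW8 the genes of the upper row are higher at 48 h (XBP1 from 83.4 to 90.4 CPM at 0 h and from 170 to 175 CPM at 48 h) and PDIA4, PDIA6, SDF2L1 and MANF of the lower row are lower, while TC71 shows smaller shifts.

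ERN1 (ENSG00000178607, hg38 chromosome 17, 64039080 to 64130819, − strand) encodes the IRE1 kinase and endoribonuclease. Its level in EW8 was 11.2, 12.4 and 10.3 CPM at 0 h and 30.6, 33.2 and 32.4 CPM at 48 h. The lowest 48 h library lay well above the highest 0 h library, and the rise was 2.88-fold (log2 fold change 1.52, standard error 0.08, adjusted p = 1.48e-18). It was the largest change of the 10 in this contrast, and 91.5% of all genes tested changed by less. XBP1 (ENSG00000100219, chromosome 22, 28794555 to 28800597, − strand) encodes the transcription factor that IRE1 activates. It read 84.0, 83.4 and 90.4 CPM at 0 h and 170, 175 and 170 CPM at 48 h in EW8. The groups did not overlap, and the rise of 1.99-fold (log2 fold change 0.995, standard error 0.04, adjusted p = 7.52e-20) lay just under the fold threshold of 2. ATF6 (ENSG00000118217, chromosome 1, 161766298 to 161977574) encodes the membrane-bound sensor and transcription factor. It rose less, from 89.6 to 96.7 CPM at 0 h to 114 to 117 CPM at 48 h (log2 fold change 0.29, standard error 0.04, adjusted p = 5.15e-07).

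HERPUD1 (ENSG00000051108, chromosome 16, 56932142 to 56944864) encodes a membrane component of the ERAD machinery. In EW8 it read 27.9, 28.0 and 30.6 CPM at 0 h and 54.3, 52.5 and 51.0 CPM at 48 h. All 48 h libraries were higher than all 0 h libraries, by 1.82-fold (log2 fold change 0.86, standard error 0.06, adjusted p = 3.19e-15). EDEM1 (ENSG00000134109, chromosome 3, 5187646 to 5219958), whose product directs misfolded glycoproteins to ERAD, lay between 102 and 106 CPM at 0 h and between 135 and 150 CPM at 48 h. It rose by 1.37-fold (log2 fold change 0.46, standard error 0.04, adjusted p = 5.03e-11), again without overlap of the libraries. Exons of EDEM1 and of ERN1 overlap those of lncRNAs annotated on the other strand. The library kit keeps strand, and the strand setting of the counting is not given in the sources used here.

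PDIA6 (ENSG00000143870, chromosome 2, 10783391 to 10837977, − strand) encodes a protein disulfide isomerase of the ER lumen. It read 317, 299.8 and 330.3 CPM at 0 h in EW8 and 202, 205 and 201 CPM at 48 h. This fall, to 0.641 of the 0 h level (log2 fold change -0.64, standard error 0.04, adjusted p = 4.29e-16), was larger than the spread between libraries (SD 15.3 CPM at 0 h and 1.87 CPM at 48 h). PDIA4 (ENSG00000155660, chromosome 7, 149003062 to 149028662, − strand), another disulfide isomerase that works with the chaperone BiP, fell from between 192 and 204 CPM to between 134 and 143 CPM. Its log2 fold change was -0.50 (standard error 0.04, adjusted p = 3.65e-13). The exons of PDIA6 overlap those of ATP6V1C2 on the other strand over 1033 bases, and ATP6V1C2 as a whole has 343 counts over all 12 libraries.

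SDF2L1 (ENSG00000128228, chromosome 22, 21642302 to 21644299) encodes a partner of BiP and its DNAJ cochaperones in the ER. Its level in EW8 was 16.9, 19.1 and 18.9 CPM at 0 h and 12.9, 10.9 and 11.0 CPM at 48 h. It showed the largest fall of the 10 in this contrast (log2 fold change -0.66, standard error 0.09, adjusted p = 2.64e-08), although the PDIA6 value lies within its standard error. MANF (ENSG00000145050, chromosome 3, 51385291 to 51389397), an ER-resident protein that is secreted under ER stress, fell from 40.9 to 42.8 CPM at 0 h to 31.7 to 36.8 CPM at 48 h. The change, -0.26 on the log2 scale (standard error 0.06, adjusted p = 2.13e-04), shrank to -0.13 when libraries were scaled to total counts alone. CRELD2 (ENSG00000184164, chromosome 22, 49918167 to 49927540), another ER-resident protein that ER stress induces, read 27.6, 32.9 and 31.3 CPM at 0 h and 29.6, 26.8 and 26.7 CPM at 48 h. Its groups overlapped, and the log2 fold change of -0.14 (standard error 0.07) had an adjusted p of 0.0537. Without EW8 0 h replicate 1 the value was -0.24 (adjusted p = 0.00230) and without EW8 48 h replicate 1 it was -0.19 (adjusted p = 0.0222), and with other scalings it ran from -0.18 (upper-quartile factors, adjusted p = 0.0164) to -0.02 (total counts, adjusted p = 0.84). CRELD2 shares 168 exonic bases with ALG12 on the other strand, and ALG12 as a whole has 3406 counts over all 12 libraries. How far such reads enter the CRELD2 row was not tested.

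In TC71, 5 of the 10 rose and 0 fell at an adjusted p below 0.05 (edgeR quasi-likelihood test), against a background of 42.1% of all genes called, 22.9% higher and 19.2% lower. The called shares were 26.1% higher and 26.9% lower among the 8639 genes at least as abundant as the least abundant member. The rises were small: ERN1, HERPUD1, XBP1, CRELD2 and EDEM1 had log2 fold changes from 0.13 to 0.53. The libraries did not overlap for these 5 and PDIA4, which is 6 of 10 against 49.6% of all genes. The counts of 5 and 0 were the same at an unadjusted p below 0.05 and with the DESeq2 Wald test. None of the 10 passed a fold of 2 by either tool or at an unadjusted p, against 3.26% of all genes above and 0.854% below it. The median log2 fold change of the members was 0.13 against 0.00 for all genes, and their median size of change was 0.13 against 0.20.

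ERN1 was again the member with the largest rise. It read 14.7, 13.0 and 13.2 CPM at 0 h in TC71 and 18.9, 19.5 and 20.7 CPM at 48 h, a rise of 1.44-fold (log2 fold change 0.53, standard error 0.08, adjusted p = 7.01e-07). XBP1 read 96.2, 91.3 and 92.2 CPM at 0 h and 104, 105 and 111 CPM at 48 h. The groups lay close together without overlap, and the log2 fold change was 0.20 (standard error 0.04, adjusted p = 6.06e-04). HERPUD1 rose from between 31.4 and 34.0 CPM to between 36.3 and 38.3 CPM (log2 fold change 0.22, standard error 0.06, adjusted p = 0.00226).

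CRELD2 and EDEM1 completed the rises in TC71, and both calls lay near the threshold. CRELD2 read 35.2, 36.5 and 35.3 CPM at 0 h and 41.5, 39.1 and 40.1 CPM at 48 h (log2 fold change 0.17, standard error 0.06, adjusted p = 0.0178). The call was lost without TC71 0 h replicate 1 (0.17, adjusted p = 0.0644), TC71 0 h replicate 3 (0.17, adjusted p = 0.0548) or TC71 48 h replicate 1 (0.15, adjusted p = 0.0640). EDEM1 went from 78.2 to 80.3 CPM at 0 h to 84.3 to 88.7 CPM at 48 h (log2 fold change 0.13, standard error 0.05, adjusted p = 0.0264). Its call was lost without TC71 0 h replicate 1 (0.12, adjusted p = 0.0783), TC71 0 h replicate 2 (0.11, adjusted p = 0.0872), TC71 48 h replicate 2 (0.10, adjusted p = 0.115) or TC71 48 h replicate 3 (0.13, adjusted p = 0.0525), and with upper-quartile factors (0.10, adjusted p = 0.0652). Without TC71 0 h replicate 1, 3 members in place of 5 were called higher, and without TC71 48 h replicate 3, the library that stood apart, 4 were.

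The other members of the set did not pass the test in TC71. PDIA6 read 277, 273 and 274 CPM at 0 h and 263, 273 and 281 CPM at 48 h, so that the groups overlapped, and the 95% interval of its log2 fold change ran from -0.09 to 0.06. For ATF6 the interval was -0.11 to 0.06, for MANF -0.17 to 0.04, for PDIA4 -0.14 to 0.01 and for SDF2L1 -0.02 to 0.30. The values of ATF6 and PDIA6 changed sign under total-count scaling (0.02 and 0.04) and without TC71 48 h replicate 1 (0.0020 and 0.01). A fall of the size measured in EW8 lies outside the TC71 interval for PDIA4, PDIA6, SDF2L1 and MANF.

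**Figure D2:**
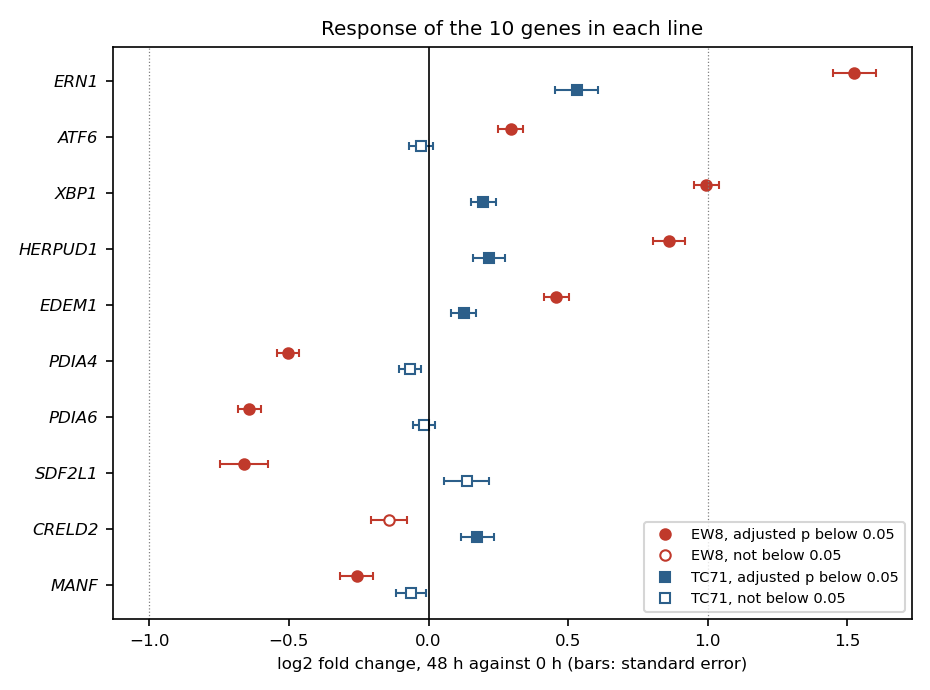
Fitted log2 fold change of each gene, 48 h against 0 h, in EW8 (circles) and TC71 (squares), with bars for the standard error and filled symbols where the adjusted p is below 0.05. The EW8 values run from -0.66 (SDF2L1) to 1.52 (ERN1) and the TC71 values from -0.07 (PDIA4) to 0.53 (ERN1), and dotted lines mark a fold of 2.

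Whether the lines responded differently was tested with an interaction term, the response of EW8 minus that of TC71. All 10 members differed at an adjusted p below 0.05 (edgeR), where 48.1% of all genes did, with 5 values above 0 (25.7% of all genes) and 5 below 0 (22.4%). Among the 8639 genes at least as abundant as the least abundant member the shares were higher, at 29.2% above and 35.1% below 0. The members with the higher response in EW8 were ERN1 by 0.99 (standard error 0.11, adjusted p = 2.75e-09), XBP1 by 0.80 (standard error 0.06, adjusted p = 2.30e-12), HERPUD1 by 0.64, EDEM1 by 0.33 and ATF6 by 0.32 on the log2 scale. The lower response in EW8 was that of SDF2L1 by -0.80 (standard error 0.12, adjusted p = 9.51e-07), PDIA6 by -0.63 (standard error 0.06, adjusted p = 3.07e-11), PDIA4 by -0.44, CRELD2 by -0.32 (adjusted p = 0.00334) and MANF by -0.19 (adjusted p = 0.0430). No member passed a fold of 2 for the difference, with edgeR at an adjusted or unadjusted p or with DESeq2, against 7.28% of all genes above and 0.981% below it. This 0 rested on ERN1, whose difference passed a fold of 2 with total-count scaling (1.07) and without EW8 0 h replicate 2 (1.02), EW8 48 h replicate 1 (1.03), TC71 0 h replicate 2 (1.02), TC71 0 h replicate 3 (1.02) or TC71 48 h replicate 3 (1.03).

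MANF was the least certain of these differences. Its call was lost without EW8 0 h replicate 3 (-0.19, adjusted p = 0.0732), EW8 48 h replicate 2 (-0.13, adjusted p = 0.193), TC71 0 h replicate 1 (-0.20, adjusted p = 0.0652), TC71 0 h replicate 3 (-0.19, adjusted p = 0.0751) or TC71 48 h replicate 3 (-0.17, adjusted p = 0.105), and with total-count scaling (-0.12, adjusted p = 0.218). The other 9 differences stayed below 0.05 without any single library and under each other scaling, filter and fit tried.

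The opposite movements in EW8 can be read inside each library, with no scaling between libraries. XBP1 had 0.265 to 0.278 counts for each PDIA6 count in the EW8 libraries at 0 h and 0.842 to 0.857 at 48 h. In TC71 the same ratio was 0.334 to 0.347 at 0 h and 0.386 to 0.396 at 48 h. The range at 48 h in EW8 stood apart from the other groups. HERPUD1 counts per SDF2L1 count went from 1.46 to 1.65 at 0 h to 4.20 to 4.80 at 48 h in EW8, and from 2.19 to 2.39 to 2.38 to 2.50 in TC71, where the groups overlapped. ERN1 per PDIA4 went from a mean of 0.0572 ± 0.00614 to 0.230 ± 0.0136 in EW8 and from 0.0653 ± 0.00522 to 0.0989 ± 0.00362 in TC71 (SD, n = 3). EDEM1 per MANF went from 2.49 ± 0.0855 to 4.11 ± 0.538 and from 1.64 ± 0.0431 to 1.87 ± 0.0772 (SD, n = 3). These pairs were chosen after their values were seen and are given as a description.

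**Figure D3:**
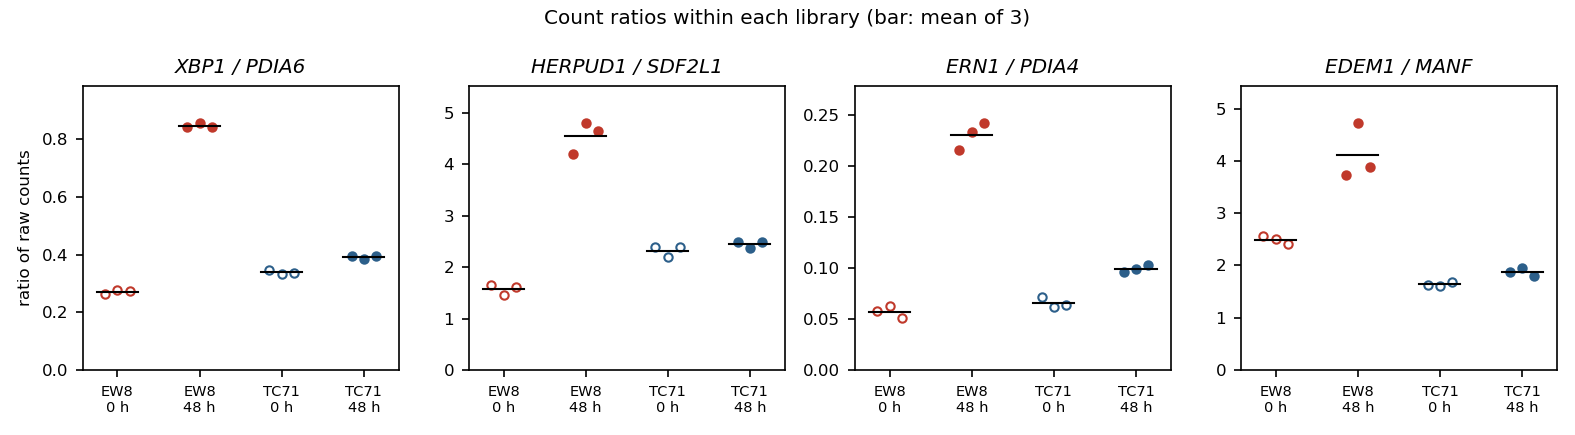
Ratio of the raw counts of a member that rose in EW8 to those of a member that fell, in each of the 12 libraries (vertical axes from 0, bars for the mean of 3). The XBP1 to PDIA6 ratio is at most 0.396 in the 9 libraries of the other groups and at least 0.842 in the 3 EW8 libraries labelled 48 h.

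Levels of different members were compared as CPM per kilobase of the canonical transcript (GENCODE release 44). All annotated exons together are longer by unequal amounts, at 1059 against 825 bases for SDF2L1 and 14263 against 7470 for ATF6. The order below rests on the canonical length, and the other length was not tried. At 0 h in EW8 the isomerases led, with PDIA6 at 139 ± 6.73 and PDIA4 at 71.4 ± 2.21 CPM per kilobase (SD, n = 3). XBP1 (48.0) and MANF (45.8) followed and overlapped each other, as did SDF2L1 (22.2) and CRELD2 (21.4). EDEM1 (17.0), ATF6 (12.5), HERPUD1 (10.1) and ERN1 (1.43) closed the order without overlap between neighbours. At 48 h in EW8, XBP1 stood first at 95.8 ± 1.82 CPM per kilobase, above PDIA6 at 88.9 ± 0.819, and ERN1 stayed last at 4.06 ± 0.173 (SD, n = 3). SDF2L1 had moved from the fifth place to the ninth there, with values that overlapped those of ATF6.

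The order in TC71 was PDIA6, PDIA4, then XBP1 and MANF at both times. PDIA6 stood at 121 ± 0.898 CPM per kilobase at 0 h and 119 ± 3.95 at 48 h, and XBP1 at 52.1 ± 1.47 and 59.6 ± 2.07 (SD, n = 3). MANF was above XBP1 at 0 h with overlapping values, and below it without overlap at 48 h. ERN1 was last at both times.

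Between the lines with doxycycline present, the members differed little in size. Of the 10, 3 were higher in EW8 and 6 lower at an adjusted p below 0.05 (edgeR), against 65.7% of all genes called, 32.8% higher and 32.9% lower, and none passed a fold of 2 by edgeR or DESeq2 or at an unadjusted p, where 4.77% of all genes did above and 11.9% below. The called shares were 46.5% higher and 29.5% lower among the 8639 genes at least as abundant as the least abundant member. The libraries of the lines did not overlap for any of the 10, as for 68.3% of all genes. SDF2L1 and EDEM1 were higher in EW8, by 0.40 (standard error 0.08) and 0.39 (standard error 0.05) on the log2 scale, and PDIA6 by 0.20 (0.07 with total-count scaling, adjusted p = 0.0968). ERN1 was lower in EW8 by -0.30, CRELD2 by -0.22, MANF and ATF6 each by -0.21, HERPUD1 by -0.16 and XBP1 by -0.12. With other scalings, filters or fits these values reached -0.43 (ERN1), -0.36 (CRELD2), -0.34 (MANF and ATF6), -0.29 (HERPUD1) and -0.25 (XBP1). Those of SDF2L1 and EDEM1 went down to 0.26 each. PDIA4 did not pass (-0.08, adjusted p = 0.0702), though it did with total counts alone (-0.21, adjusted p = 8.26e-06) or upper-quartile factors (-0.16, adjusted p = 3.33e-04) and under a minimum of 10 counts per library (-0.10, adjusted p = 0.0139). The XBP1 call was lost without EW8 0 h replicate 1, EW8 0 h replicate 2 or TC71 0 h replicate 1 (-0.09 in each, adjusted p from 0.106 to 0.144). The HERPUD1 call was lost without EW8 0 h replicate 1, EW8 0 h replicate 2 or TC71 0 h replicate 2 (-0.12 to -0.13, adjusted p from 0.0783 to 0.118), and that of CRELD2 without EW8 0 h replicate 1 (-0.15, adjusted p = 0.0532), which left 3 lower members. The members that rose in EW8 at 48 h thus included EDEM1, which started higher than in TC71, and ERN1, XBP1, HERPUD1 and ATF6, which started lower.

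The other genes of the pathway were taken from 7 lists. Their counts stand beside 37% of all genes higher and 31.6% lower in EW8, and 22.9% and 19.2% in TC71. Among the 8639 genes at least as abundant as the least abundant member, the shares were 37.1% higher and 43.4% lower in EW8, and 26.1% and 26.9% in TC71. The sensors and their partners divided. EIF2AK3, which encodes PERK, rose from 13.1 to 40.2 CPM in EW8 (log2 fold change 1.61, standard error 0.07, adjusted p = 1.66e-19) and from 14.2 to 23.5 CPM in TC71 (0.73, adjusted p = 1.07e-09), so that 2 of the 3 sensor mRNAs, ERN1 and EIF2AK3, were among the larger rises. The protease genes MBTPS1 (-0.18) and MBTPS2 (-0.31) and the ATF6 homolog ATF6B (-0.17) were lower in EW8, and the MBTPS1 and ATF6B calls were lost with total-count scaling (-0.06 and -0.05). MBTPS2 kept its call with other scalings, filters or fits, at values down to -0.18 in size. RTRAF, of the complex that ligates XBP1 mRNA after IRE1 cleavage, fell by 0.67 on the log2 scale in EW8 and by 0.28 in TC71. CREB3L4, a related membrane-bound transcription factor, rose in TC71 (0.41, adjusted p = 3.27e-05) and did not pass in EW8 (0.15), though it did there with total-count scaling (0.27, adjusted p = 0.00502). Of the 11 genes of this list that were tested, EW8 had 2 higher and 7 lower, and TC71 had 4 in each direction.

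Among the ER chaperones, 3 of 14 rose and 8 fell in EW8, where 43.4% of the abundant genes were lower (median -0.24 against 0.03 for all genes). HSPA5, which encodes BiP, the main ER chaperone, went from 496 to 359 CPM (log2 fold change -0.47, standard error 0.04, adjusted p = 8.47e-13). HYOU1, a nucleotide exchange factor for BiP, fell from 248 to 143 CPM (-0.80, adjusted p = 2.87e-18), and HSP90B1 from 869 to 767 CPM (-0.18, lost with total-count scaling). The BiP cochaperone genes DNAJC3 (1.34, adjusted p = 5.78e-24) and DNAJB9 (1.22, adjusted p = 4.13e-16) rose by more than 2-fold in the same libraries. The TC71 calls on this list were 2 higher and 3 lower: DNAJB9 (0.32) and DNAJC3 (0.31) rose, HYOU1 (-0.25), SIL1 (-0.26) and CNPY2 (-0.56) fell, and HSPA5 did not pass (-0.08, adjusted p = 0.0893), though it did with upper-quartile factors (-0.11, adjusted p = 0.0137). SIL1 was named after its value was seen. An ERSE lies in the promoters of HSPA5, HSP90B1, CALR and CANX, 4 of the 14, and an ERSE-II in that of HYOU1.

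Of the other genes of oxidative folding, 8 of 14 were lower and 4 higher in EW8, with a median of -0.25. ERO1A, the oxidase that recharges the isomerases, fell by 0.76 on the log2 scale (adjusted p = 7.79e-15), and P4HB by 0.20 (lost with total-count scaling), while QSOX1, a sulfhydryl oxidase, rose (0.76, adjusted p = 6.36e-16). In TC71 P4HB and QSOX1 rose (0.18 and 0.25) and ERO1A fell by 0.17, a call that was lost without TC71 0 h replicate 3 (-0.13, adjusted p = 0.0702) or TC71 48 h replicate 1 (-0.14, adjusted p = 0.0510). Translocation, glycosylation and transport genes gave 20 of 30 lower and 6 higher in EW8 (median -0.26), beside 43.4% lower and 37.1% higher of the abundant genes, with SEC61G (-0.75, adjusted p = 9.13e-13), a subunit of the translocation channel, as the largest fall. KDELR3, a receptor that returns ER proteins from the Golgi, was the largest rise (1.16 in EW8 and 0.75 in TC71). In TC71 the list gave 3 higher and 8 lower, beside 26.1% higher and 26.9% lower of the abundant genes, and SEC61G was lower there too (-0.31).

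The ERAD genes other than HERPUD1 and EDEM1 were mixed, with 6 of 17 higher and 5 lower in EW8 and a median of -0.01. HERPUD2, the paralog of HERPUD1, rose by 0.66 on the log2 scale (adjusted p = 1.72e-10) and SEL1L, the scaffold of the ERAD ligase, by 0.26. VCP, the ATPase that extracts proteins from the membrane, fell by 0.88 (adjusted p = 3.23e-21), and EDEM2, a paralog of EDEM1, by 0.70 (adjusted p = 2.09e-10). In TC71, 2 of the 17 were higher and 3 lower, and UBE2G2, a ubiquitin-conjugating enzyme of this route, had the largest fall of the list (-0.30, adjusted p = 3.93e-07). The rise of both ERAD members of the set is therefore not shared by the whole list.

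The PERK and ATF4 arm had 9 of 11 genes higher and 2 lower in EW8 (median 2.16), 7 of them higher by more than 2-fold. Past that fold, 13.9% of all genes were higher in EW8. Among the 7 was NUPR1, near the floor at 0.064 CPM at 0 h and 0.823 CPM at 48 h, and named after its value was seen. In TC71 the arm had 7 higher and 2 lower, and the median of 0.27 was the value of NUPR1, which did not pass there. DDIT3 rose from 5.03 to 178 CPM in EW8 and from 4.72 to 30.8 CPM in TC71, ATF3 by 4.89 and 3.37 on the log2 scale, and ATF4 mRNA fell by 0.27 and 0.42. With other scalings, filters or fits the ATF4 value in EW8 ran from -0.31 to -0.15 and kept its call. The other lower gene of this arm was ASNS, the asparagine synthetase gene and a target of ATF4, which fell by 0.55 in EW8 and by 1.08 in TC71 (adjusted p = 1.37e-19). It was the only gene of the lists lower by more than 2-fold in TC71, and was named after its value was seen. Reported substrates of regulated IRE1-dependent decay, mRNAs that IRE1 can cleave, gave 3 higher and 3 lower of 8 in EW8 and 4 higher and 2 lower in TC71. PDGFRB (1.28 in EW8, 0.65 in TC71), SPARC (0.54, 0.29) and SCARA3 (0.47, 0.97) were higher. The lower genes in EW8 were BLOC1S1 (-0.45), CD59 (-0.44) and GALNT10 (-0.38), and those in TC71 were COL6A1 (-0.36) and CD59 (-0.13), of which all 4 were named after their values were seen.

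**Figure D4:**
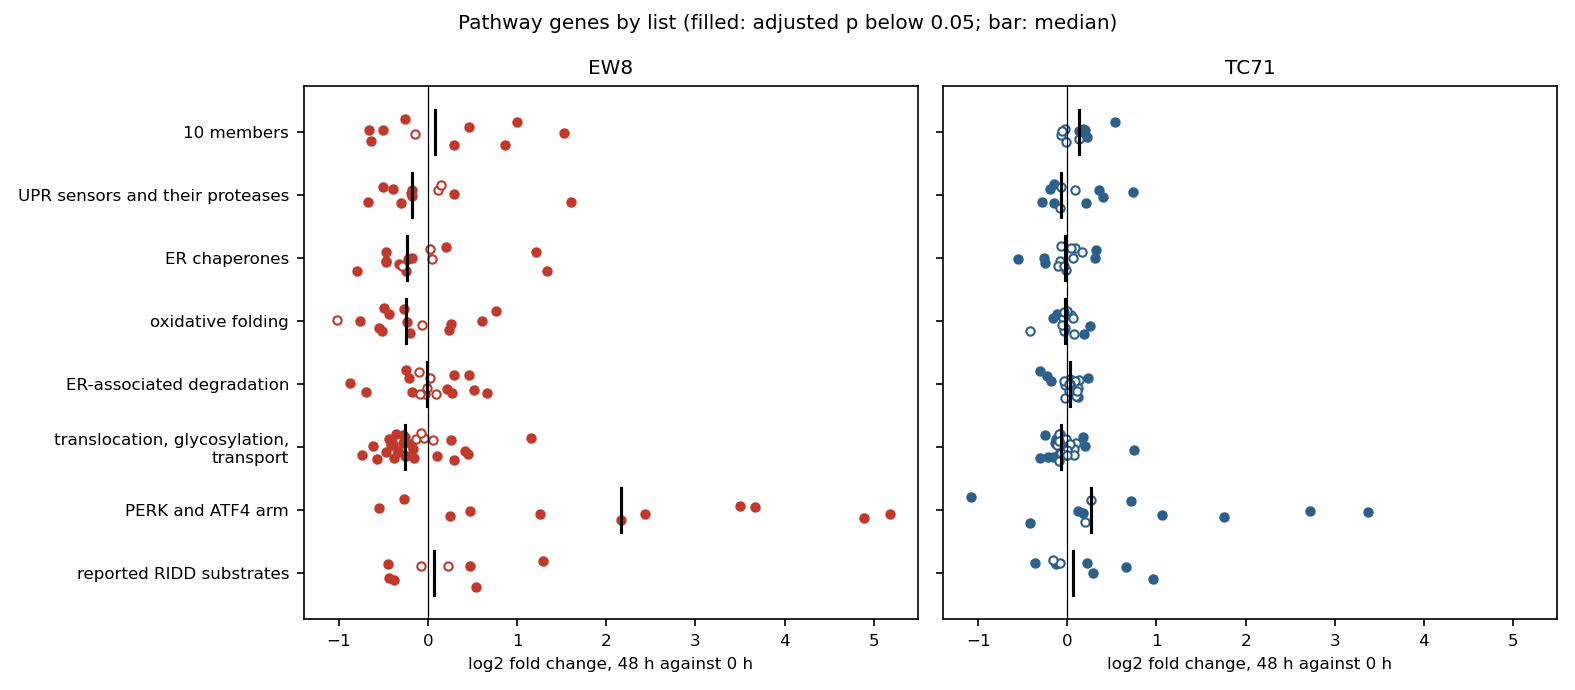
Fitted log2 fold changes (48 h against 0 h) of the 10 members and of the tested genes in each pathway list, with 1 point per gene, filled where the adjusted p is below 0.05, and a bar at the list median. In EW8 the medians of chaperones (-0.24), oxidative folding (-0.25) and translocation (-0.26) lie below 0 and that of the PERK and ATF4 arm lies at 2.16, while in TC71 all medians lie between -0.07 and 0.27.

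The genes whose log2 CPM was most like that of a transducer over the 12 libraries were TIMP3 (Pearson r = 0.997), DAPK1 (0.995) and RIPK2 (0.995) for XBP1, DNAL4 (0.996), LINC00963 (0.995) and RASSF1 (0.994) for ERN1, and YIPF4 (0.982), SUPV3L1 (0.980) and ABI1 (0.978) for ATF6. They are named as a description, since the points share libraries and fall into the 4 groups. No other member of the set was among these.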

How the data were processed

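RNA was isolated with an RNeasy kit, and stranded poly(A) libraries were sequenced as paired-end reads. Per the labels and the study's methods, the authors checked reads with FastQC, mapped them to hg38 with STAR and deposited raw counts per gene, with no normalization and 1 column per library. The counting tool, annotation release and filter are not given in the sources used here, and no gene has fewer than 21 reads in all. Libraries were grouped by their titles, and all 12 columns were mapped.

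The tests used edgeR (version 4.0.16, R version 4.3.3). Low genes were removed by filterByExpr (minimum count 10, minimum total 15), and the rest were scaled with TMM and fitted over the 4 groups with a robust quasi-likelihood fit and no block. The contrasts compared 48 h with 0 h in each line, both responses with each other, and EW8 minus TC71 at 0 h, adjusted over all 16515 genes. A call is an adjusted p below 0.05, and the fold of 2 of the study was counted separately. CPM are counts per 1e+06 counts of the TMM-scaled library. Coordinates and transcript lengths come from GENCODE release 44, and promoter sequences from RefSeq (10 of 10 members matched).

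Named genes were RRM1, the members, the central genes of the pathway, and in each list and line the 2 called genes that changed most with at least 20 counts on average in the lower group. The members, lists and rules were chosen with earlier results of these data known. Alternatives were other scalings, DESeq2 1.42.0, other filters, each line alone, a block on the replicate number, a non-robust fit, stricter thresholds, and each library left out in turn. Samples with the same replicate number did not deviate together. Figures were drawn with matplotlib 3.10.9. Protein sequences were not analysed here.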

Additional observations from a re-analysis of the deposited data

Results flagged for a closer look

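Every result listed here is a response that differed between EW8 and TC71 in the interaction test (edgeR, adjusted p below 0.05, as for 48.1% of all genes). Of the 8639 genes at least as abundant as the least abundant member, 29.2% differed above 0 and 35.1% below 0. Values are log2 differences, EW8 minus TC71, and no explanation of them was tested. Of the pathway lists, only the genes named by the rule are given, and the count of all genes of the list that differed stands beside them. Among the members, ERN1 differed by 0.99, XBP1 by 0.80, HERPUD1 by 0.64, EDEM1 by 0.33 and ATF6 by 0.32, and on the other side PDIA4 by -0.44, PDIA6 by -0.63, SDF2L1 by -0.80, CRELD2 by -0.32 and MANF by -0.19. RRM1 differed by 2.23. In the PERK and ATF4 arm 9 of 11 genes differed, and DDIT3 differed by 2.46, ATF3 by 1.52 and ATF4 by 0.15. ATF4 fell in both lines, and its difference was lost without EW8 0 h replicate 1 (0.12, adjusted p = 0.0716) or TC71 48 h replicate 2 (0.12, adjusted p = 0.0587).

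In the sensor list 5 of 11 genes differed, among them EIF2AK3 (0.87) and RTRAF (-0.39). In the chaperone list 9 of 14 did, among them DNAJC3 (1.03), DNAJB9 (0.90), HSPA5 (-0.39), HYOU1 (-0.55) and HSP90B1 (-0.17, with -0.10 and adjusted p = 0.117 under total-count scaling). Oxidative folding had 12 of 14, among them QSOX1 (0.51), ERO1A (-0.60) and P4HB (-0.38), the last with a fall in EW8 and a rise in TC71. ERAD had 9 of 17, among them HERPUD2 (0.43), SEL1L (0.29), EDEM2 (-0.47) and VCP (-0.69). Translocation and transport had 23 of 30, among them SEC61G (-0.44) and KDELR3 (0.41). The KDELR3 difference was lost without EW8 0 h replicate 1 (0.35), EW8 0 h replicate 3 (0.35), EW8 48 h replicate 2 (0.31), TC71 0 h replicate 1 (0.39) or TC71 0 h replicate 3 (0.34), with adjusted p from 0.0552 to 0.105. Of the substrates of IRE1-dependent decay, 6 of 8 differed, of which PDGFRB (0.63) and SPARC (0.25) rose more in EW8 and SCARA3 (-0.49) rose more in TC71.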

How the results depend on the processing

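No member changed direction in a called response under the alternatives tried, and of the recomputed member values 603 kept their side of the threshold, 26 lost a call and 11 gained it. The counts of members rested most on the fold threshold: with a fold above 2, members higher went from 5 to 1 in EW8, from 5 to 0 in TC71, from 5 to 0 for the difference and from 3 to 0 at 0 h, and members lower from 4, 5 and 6 to 0. At that threshold XBP1 made 2 higher in EW8, and ERN1 made 1 for the difference, with total-count scaling (1.12 and 1.07) or without some single libraries (up to 1.005 and 1.03). For the other pathway genes that threshold left 12 of 33 higher and 0 of 53 lower in EW8, and 4 of 24 higher and 1 of 24 lower in TC71. These are parts of the genes called at any fold, not of all list genes tested. Of all genes tested, 13.9% were higher and 3.35% lower past the fold in EW8, and 3.26% and 0.854% in TC71. In EW8, CRELD2 joined the lower members, which then numbered 5, with DESeq2 size factors (adjusted p = 0.0409), upper-quartile factors (0.0164), no filter (0.0458), a minimum of 10 counts (0.0392) or each line fitted alone (0.02405), and without EW8 0 h replicate 1 or EW8 48 h replicate 1. In TC71, an adjusted p below 0.01 left 3 members higher, and upper-quartile factors gave 1 lower (PDIA4, -0.09, adjusted p = 0.0343). With 1 library left out, the members called higher in TC71 ran from 3 to 4 and those lower at 0 h from 3 to 6.

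Total-count scaling shifted the median of all genes by 0.13 in EW8 and by -0.13 at 0 h against TMM, and the share of calls that were higher went from 53.9% to 64.1% in EW8, from 54.3% to 66.4% in TC71 and from 49.9% to 36% at 0 h. The same replicate numbers did not mark paired samples (correlations of deviations from -0.14 to -0.01). With the replicate number as a block, 3 members in place of 5 were called higher in TC71, where EDEM1 and CRELD2 had adjusted p of 0.0878 and 0.0531, and the calls of XBP1 at 0 h (0.0746) and of MANF for the difference (0.0915) were lost. No other member call changed with the block.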
